A study of Mus musculus with 16 samples.

Results

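Of the 24062 genes counted in mouse sperm RNA, 10 were followed here because their products mark, build or load extracellular vesicles, and they were picked by symbol: the tetraspanins Cd9, Cd63, Cd81 and Cd82, the sorting genes Pdcd6ip, Tsg101 and Sdcbp, and Mfge8, Flot1 and Anxa2, found in or on vesicles. RNA came from motile sperm of 16 male mice, 8 on a high-fat diet (HFD, a modified D12492) and 8 on its control diet (CD). Males of both groups started their diet at 3 weeks of age and kept it for 9 weeks. The strain is not given in the sources used here, and no genetic change or other agent is named for either group. RNA of 2 ng per sample was amplified before sequencing, and the series gives 8 mice for each diet, so each library was taken as 1 animal.

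Extracellular vesicles are membrane sacs that cells shed or secrete. Those called exosomes form inside late endosomes, where the ESCRT proteins, or a route through syndecans, syntenin and ALIX, bud small vesicles inward before the endosome fuses with the plasma membrane. In the epididymis, the duct where sperm mature, the epithelium releases vesicles named epididymosomes that hand proteins, lipids and small RNA to passing sperm. The counts measured messenger RNA in the preparation, not vesicles or vesicle proteins.

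Gene counts per library ran from 1882555 to 5153818 in HFD and from 3172721 to 7783981 in CD. Although labelled as spermatozoa, the preparations held much RNA of the epididymal epithelium: 20 of its marker genes summed to 11355 to 79399 CPM (reads of a gene scaled to a common library total) in HFD and 37371 to 87541 CPM in CD. The sums of 20 late spermatid genes were 3009 to 54312 CPM in HFD and 2331 to 12915 CPM in CD. Some epididymal markers were at 0 in many libraries, Lcn10 in 11, Lcn9 in 10 and Cst12 in 9. The libraries HFD 4 and HFD 8 stood apart. Their late spermatid sums were 22064 and 54312 CPM, against 2331 to 12915 in the other 14 libraries, and their epididymal sums were 14521 and 11355 CPM, against 37371 to 87541. Not all epididymal markers went down. Of the 15 tested, 9 were below all other 14 libraries in both, against 22.6% of all genes tested. Cst8 was above them in both, and Crisp1 in HFD 4 and Gpx5 in HFD 8 lay within the range of the others. The summed level of 14 meiotic genes was 3199 CPM in HFD 4 and 2588 CPM in HFD 8, with the others between 181 and 939 CPM. A few genes held much of this sum: the highest HFD values were 1787 CPM for Mael, 527 for Syce2 and 362 for Ddx4. Dmc1 was at 0 in 12 libraries and Spo11 in 3. Of the 11 meiotic genes tested, 9 were above all other 14 libraries in both HFD 4 and HFD 8, against 21.8% of all genes tested. Sums of 15 leukocyte genes were 928 CPM in HFD 4 and 1284 CPM in HFD 8, against 212 to 1032, and of 15 genes of stroma, endothelium and smooth muscle 949.8 CPM in HFD 4 and 953.6 CPM in HFD 8, against 277 to 799. Members of this last list went both ways. Of its 13 genes tested, 2 were below all other 14 libraries in both HFD 4 and HFD 8, the smooth muscle genes Myh11 and Tagln. The share over all genes tested was 22.6%. Above all other 14 in both were 5 of the 13, against 21.8% of all genes tested: Col3a1, Dcn, Lum, Vim and Pecam1. In bulk RNA, fewer cells of a type and less RNA per cell cannot be told apart.

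All 10 genes passed the low-count filter, and none differed between the diets beyond the spread of the libraries. In edgeR's quasi-likelihood test over 13149 genes, with Benjamini-Hochberg adjustment and a threshold of 0.05, 0 of the 10 passed, where the background was 0% of all genes tested. At an unadjusted p under 0.05 there were also 0 of the 10, against 11.3% of all genes tested. DESeq2 and limma-voom also called 0 of the 10; over all genes DESeq2 called 1 and limma-voom 0, and 1482 had an unadjusted edgeR p under 0.05. The log2 fold change, HFD over CD, was above 0 for 2 of the 10, against 49.6% of all genes tested, and its median was -0.13, against -0.0042 over all genes tested. That direction changed when HFD 4 and HFD 8 were left out, a choice made after seeing the data: 7 of the 10 were above 0, against 49.2% of all genes, with a median of 0.09. Both libraries were below all other 14 for 7 of the 10 genes, so leaving them out necessarily raises the HFD level of those genes. Without them 0 of the 10 were called, and 0 had an unadjusted p under 0.05, against 2.17% of all genes.

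**Figure D1:**
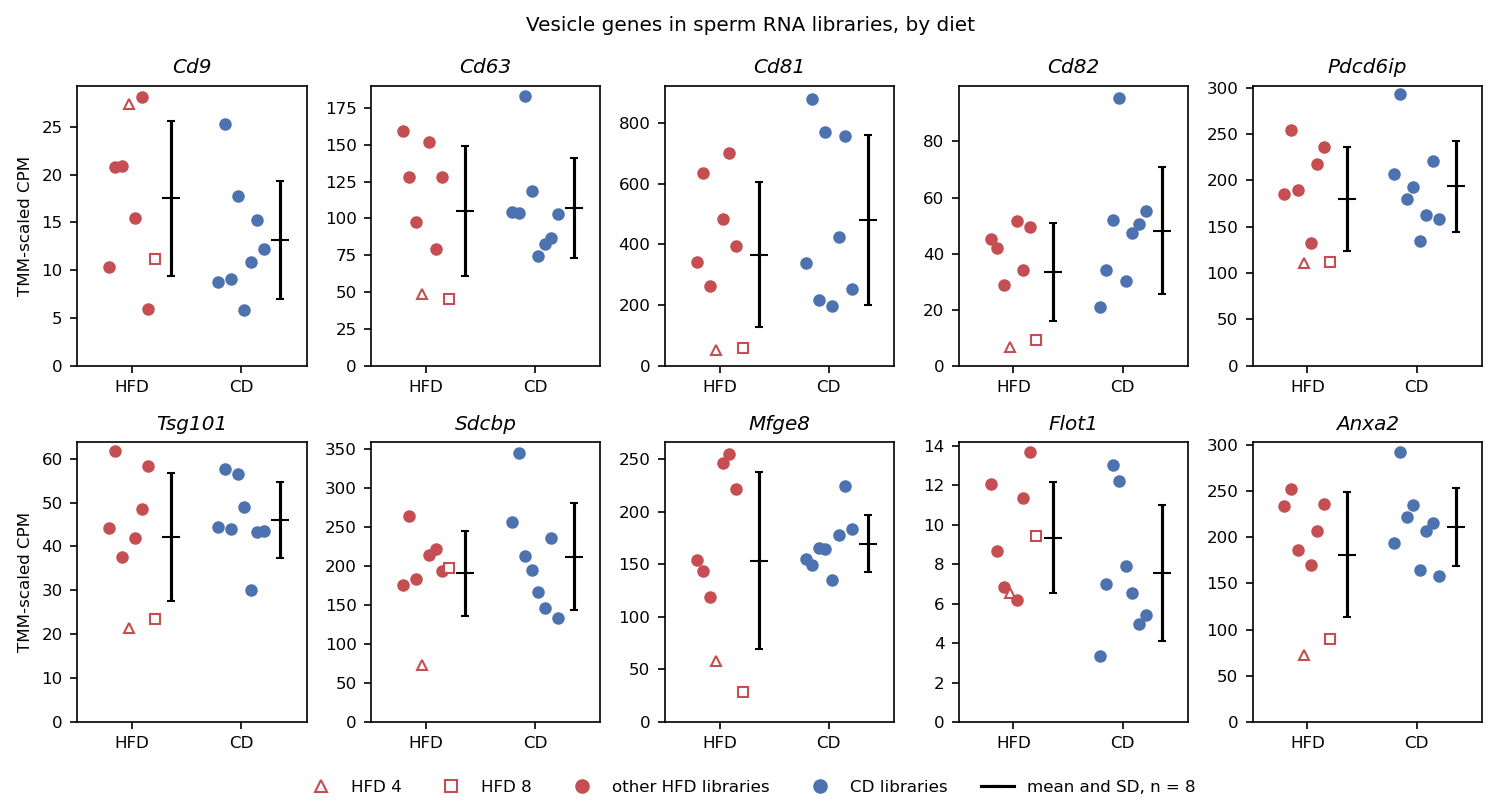
Level of each of the 10 genes in every library, in CPM scaled by the trimmed mean of M-values (TMM), with HFD libraries in red, CD libraries in blue, HFD 4 as an open triangle and HFD 8 as an open square. Black bars give the mean and SD of 8 libraries. For Cd81, HFD 4 and HFD 8 sat at 53.0 and 59.6 CPM, below the 198 CPM of the lowest other library, whereas for Cd9 and Flot1 they lay among the rest.

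Tetraspanins span the membrane 4 times and gather other proteins into patches that vesicles carry away. Cd81 was the most abundant of the 10 genes per length, with 276 CPM per kilobase of exon (SD 169 over 16 libraries), and its level varied most of all 10. It is a partner of integrins and of immunoglobulin-type proteins, and in mouse eggs it takes part in sperm fusion. Its TMM-scaled level ran from 53.0 CPM in HFD 4 over a median of 368 to 701 CPM in HFD 6 in HFD, and from 198 CPM in CD 5 over a median of 382 to 882 CPM in CD 2 in CD. Apart from HFD 4 and HFD 8, the HFD libraries lay within the CD range. The highest library held 16.6 times the level of the lowest, and 4.45 times among the 14 libraries other than HFD 4 and HFD 8. The SD of its log2 CPM, 1.20, was larger than that of 84.5% of all genes tested. The HFD mean was 367 CPM ± 240.0 and the CD mean 481 CPM ± 280.0 (SD, n = 8 each). The log2 fold change was -0.39 with a 95% interval of -1.41 to 0.63 and an edgeR adjusted p of 0.789. Leaving out HFD 4 and HFD 8 gave -0.016.

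Cd82, a tetraspanin first known as a suppressor of metastasis, had the most negative difference of the 10. It ran from 6.55 CPM in HFD 4 over a median of 38.1 to 51.5 CPM in HFD 5 in HFD, and from 20.8 CPM in CD 1 over a median of 48.9 to 95.3 CPM in CD 4 in CD. The ranges overlapped, and only CD 3, CD 4 and CD 8 lay above the highest HFD library. The HFD mean was 33.4 CPM ± 17.5 and the CD mean 48.2 CPM ± 22.6 (SD, n = 8 each). Its log2 fold change of -0.52 (SE 0.39) had an edgeR adjusted p of 0.649. It was -0.19 when HFD 4 and HFD 8 were left out and -0.28 when CD 4 was.

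Cd63, a tetraspanin of late endosomes and lysosomes and a standard exosome marker, was nearly level between the diets. It ran from 45.3 CPM in HFD 8 over a median of 113 to 159 CPM in HFD 1 in HFD, and from 74.3 CPM in CD 5 over a median of 103 to 183 CPM in CD 3 in CD. Means were 105 CPM ± 44.3 in HFD and 107 CPM ± 33.9 in CD libraries (SD, n = 8 each), and the log2 fold change was -0.03 with a 95% interval of -0.60 to 0.54 (edgeR adjusted p = 0.979). Its sign changed under several settings, and without HFD 4 and HFD 8 it was 0.22.

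Cd9, the tetraspanin that mouse eggs need for fusion with sperm, had a positive difference that did not pass the test. It ran from 5.91 CPM in HFD 7 over a median of 18.1 to 28.2 CPM in HFD 6 in HFD, and from 5.87 CPM in CD 5 over a median of 11.5 to 25.3 CPM in CD 2 in CD. HFD 4, low in most of the other genes, held 27.4 CPM, more than any library but HFD 6. Means were 17.5 CPM ± 8.13 in HFD and 13.1 CPM ± 6.18 in CD libraries (SD, n = 8 each), and the log2 fold change of 0.41 (SE 0.35) had an edgeR adjusted p of 0.705. Between 16 and 110 reads per library stood behind the HFD values and between 23 and 191 behind the CD values.

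**Figure D2:**
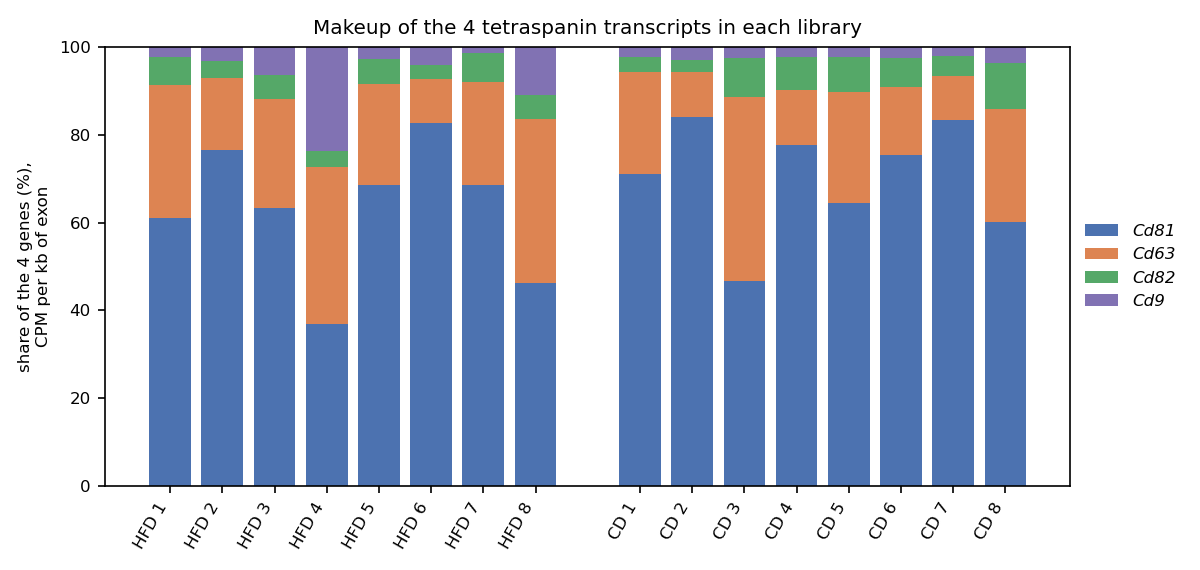
Share of Cd81, Cd63, Cd82 and Cd9 in the summed CPM per kilobase of these 4 genes, 1 bar per library. Cd9 made up 23.7% in HFD 4 and 10.8% in HFD 8, and 1.28% to 6.28% in the other 14 libraries.

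The proportions of the 4 tetraspanins differed from library to library, a comparison within a library that library scaling cannot alter. Per kilobase of exon, Cd81 made up 36.8% to 82.8% of the 4 in HFD and 46.8% to 83.998% in CD, with medians of 65.9% in HFD and 73.2% in CD. Cd63 made up 9.87% to 37.2% in HFD and 10.04% to 41.9% in CD. Cd82 held 3.19% to 6.80% in HFD and 2.58% to 10.4% in CD. Cd9 held 1.28% to 23.7% in HFD and 2.09% to 3.61% in CD. HFD 4 had the lowest share of Cd81 and the highest of Cd9 of all 16 libraries. CD 3 had a share of 46.8% for Cd81 and 41.9% for Cd63.

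The start regions of Cd81 and Cd9 are shown because they had the lowest and the highest ratio of the 10 genes in HFD 4, where Cd81 was at 0.13 times and Cd9 at 2.00 times the median of the other 14 libraries. Each line gives the 250 bases before the RefSeq transcript start on GRCm38.p6, 5′ to 3′ on the gene's strand, with GC boxes (GGGCGG or CCGCCC) in capitals. The Cd81 window is chr7:143052500-143052749 on the plus strand and the Cd9 window chr6:125494761-125495010 on the minus strand.
Cd81: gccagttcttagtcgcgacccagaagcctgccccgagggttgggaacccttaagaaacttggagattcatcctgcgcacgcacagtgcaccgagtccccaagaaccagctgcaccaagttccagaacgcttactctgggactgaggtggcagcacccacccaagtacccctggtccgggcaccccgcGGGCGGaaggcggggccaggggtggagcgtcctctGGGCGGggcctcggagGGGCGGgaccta
Cd9: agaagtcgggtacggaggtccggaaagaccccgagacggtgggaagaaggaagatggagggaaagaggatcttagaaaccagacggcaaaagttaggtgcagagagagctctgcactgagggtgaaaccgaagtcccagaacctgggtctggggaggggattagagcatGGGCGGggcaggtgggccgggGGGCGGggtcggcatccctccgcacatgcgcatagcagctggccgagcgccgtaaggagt

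The Cd81 window held 3 GC boxes and the Cd9 window 2, and 32.7% of the 32841 RefSeq windows of this length held at least 1. The TATA box letters TATAAA (or TTTATA) were in neither window and in 12.4% of all windows. Windows were matched for 8 of the 10 genes, all but Sdcbp and Flot1. Mfge8 held 4 GC boxes, Anxa2 held 3 and 1 TATA box, and Cd82 held 1 at each of 2 of its 4 starts. The windows of Cd63, Pdcd6ip and Tsg101 held none of these letters.

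The 3 sorting genes were the steadiest of the group. Pdcd6ip encodes ALIX, which links ESCRT-III to cargo. It ran from 111 CPM in HFD 4 over a median of 187 to 254 CPM in HFD 2 in HFD, and from 134 CPM in CD 5 over a median of 186 to 293 CPM in CD 2 in CD. The groups overlapped over most of their range. The log2 SD of 0.41 was larger than that of 13.1% of genes tested. The HFD mean was 179.8 CPM ± 55.9 and the CD mean 194 CPM ± 48.9 (SD, n = 8 each), with a log2 fold change of -0.11, a 95% interval of -0.56 to 0.35 and an edgeR adjusted p of 0.875.

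Tsg101, the ESCRT-I subunit that reads ubiquitin on cargo and binds ALIX, ran from 21.4 CPM in HFD 4 over a median of 43.0 to 61.7 CPM in HFD 2 in HFD. In CD it ran from 30.0 CPM in CD 6 over a median of 44.2 to 57.7 CPM in CD 2. The medians differed by less than either SD. The HFD mean was 42.1 CPM ± 14.6 and the CD mean 46.1 CPM ± 8.72 (SD, n = 8 each), with a log2 fold change of -0.13, a 95% interval of -0.60 to 0.35 and an edgeR adjusted p of 0.860.

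Sdcbp encodes syntenin, the adaptor that ties syndecans to ALIX. It ran from 73.2 CPM in HFD 4 over a median of 195 to 264 CPM in HFD 2 in HFD, and from 134 CPM in CD 8 over a median of 204 to 345 CPM in CD 2 in CD. HFD 4 alone lay below the CD range, and HFD 8, at 197 CPM, lay inside it. Averages were 190.2 CPM ± 54.8 for HFD and 211 CPM ± 68.6 for CD (SD, n = 8 each), with a log2 fold change of -0.15, a 95% interval of -0.66 to 0.35 and an edgeR adjusted p of 0.837. Sdcbp overlaps Nsmaf on the other strand (chromosome 4, 6396207 to 6408423 on GRCm38), and Nsmaf had 44.6 CPM in HFD 4, 84.7 CPM in HFD 8 and 21.3 to 48.6 CPM in the other 14 libraries. Reads of overlapping genes could have been shared in the counting, and the part of Nsmaf in the Sdcbp value was not tested.

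Mfge8, a secreted protein that binds phosphatidylserine on vesicles and integrins on cells and in mouse also coats sperm, varied more than most of the 10, with a log2 SD of 0.80. It ran from 28.6 CPM in HFD 8 over a median of 149 to 255 CPM in HFD 6 in HFD, and from 135 CPM in CD 5 over a median of 165 to 225 CPM in CD 7 in CD. The HFD libraries reached past the CD range at both ends. HFD 4 and HFD 8 stood at 0.35 and 0.17 times the median of the other 14 libraries. Averages were 153 CPM ± 84.4 for HFD and 169.7 CPM ± 27.1 for CD (SD, n = 8 each), with a log2 fold change of -0.14 and an edgeR adjusted p of 0.892. It was 0.18 with HFD 4 and HFD 8 left out.

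Anxa2, an annexin that binds membranes in the presence of calcium, ran from 72.01 CPM in HFD 4 over a median of 197 to 253 CPM in HFD 2 in HFD, and from 159 CPM in CD 8 over a median of 212 to 292 CPM in CD 2 in CD. Among the 14 libraries other than HFD 4 and HFD 8 it was the steadiest of the 10 genes, with the highest at 1.84 times the lowest. Averages were 181 CPM ± 67.7 for HFD and 211 CPM ± 42.3 for CD (SD, n = 8 each), with a log2 fold change of -0.22, a 95% interval of -0.73 to 0.29 and an edgeR adjusted p of 0.768. With HFD 4 and HFD 8 left out the difference was 0.036, with an interval of -0.26 to 0.33.

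Flot1, a scaffold protein of lipid rafts, was the scarcest of the 10, with 11 to 63 reads per library in HFD and 13 to 53 in CD. It ran from 6.20 CPM in HFD 5 over a median of 9.05 to 13.7 CPM in HFD 7 in HFD, and from 3.34 CPM in CD 1 over a median of 6.78 to 13.03 CPM in CD 3 in CD. The ranges overlapped, and CD 1, CD 7 and CD 8 lay below every HFD library. Averages were 9.35 CPM ± 2.80 for HFD and 7.56 CPM ± 3.43 for CD (SD, n = 8 each), with a log2 fold change of 0.31, a 95% interval of -0.36 to 0.99 and an edgeR adjusted p of 0.750. HFD 4 and HFD 8, at 6.55 and 9.41 CPM, lay among the other libraries.

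**Figure D3:**
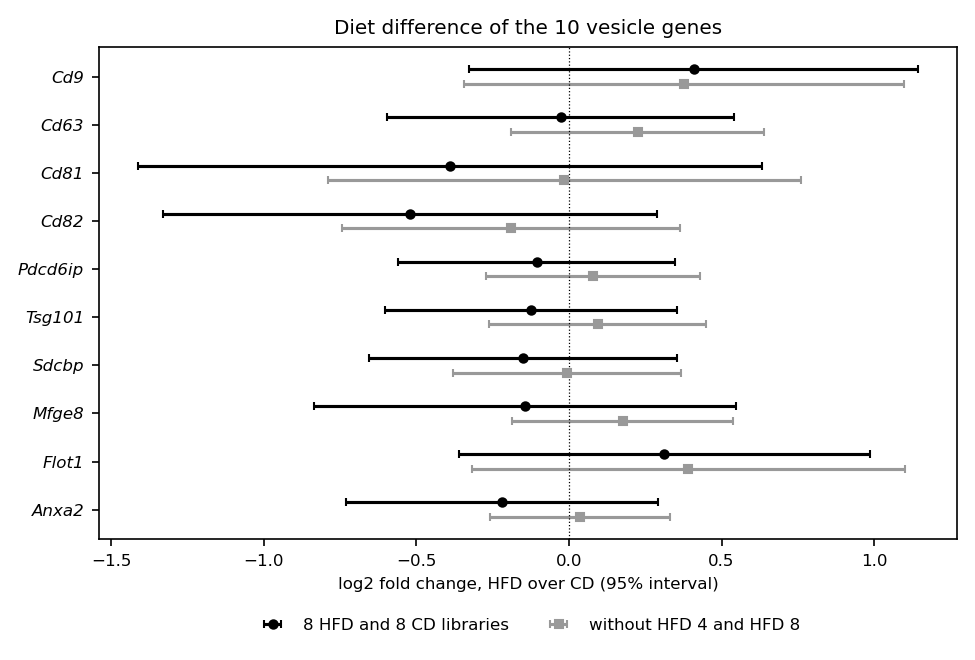
Log2 fold change, HFD over CD, of each gene with its 95% interval from edgeR, over 8 HFD and 8 CD libraries (black circles) and without HFD 4 and HFD 8 (grey squares). Every interval spans 0. The point estimates of Cd63, Pdcd6ip, Tsg101, Mfge8 and Anxa2 lie below 0 with all libraries and above 0 without those libraries.

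Per kilobase of exon the order over all libraries was Cd81, Anxa2 at 135 CPM, Mfge8 at 76.0, Cd63 at 73.1, Sdcbp at 51.4, Pdcd6ip at 31.3, Tsg101 at 22.6, Cd82 at 21.1, Cd9 at 12.5 and Flot1 at 4.63. Within a library, Anxa2 lay above Mfge8 and Sdcbp above Pdcd6ip in 16 of 16 libraries, and Pdcd6ip above Tsg101 and Cd9 above Flot1 in 15 of 16. The other neighbours in that order did not differ beyond the spread of their log2 ratio. Mfge8 and Cd63 changed places in 8 of 16 libraries, and Cd81 was above Anxa2 in 13 of 16. Cd9, Cd63 and Tsg101 each have an annotated processed pseudogene. Reads without a unique alignment, 15.8% in HFD 8 to 30.7% in HFD 3, were not counted in genes. Whether this lowered the 3 genes was not tested. Lengths came from the basic GENCODE M21 transcripts. With all annotated transcripts, Sdcbp moved above Cd63 and the other ranks stayed.

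HFD 4 and HFD 8 were both below all other 14 libraries for 7 of the 10 genes: Cd63, Cd81, Cd82, Pdcd6ip, Tsg101, Mfge8 and Anxa2. The same held for 22.6% of all genes tested. The levels relative to the median of the other 14 libraries, HFD 4 given before HFD 8, were 0.13 and 0.15 for Cd81, 0.14 and 0.20 for Cd82, 0.34 and 0.42 for Anxa2, 0.47 and 0.44 for Cd63, 0.48 and 0.53 for Tsg101 and 0.58 in both for Pdcd6ip. For the epididymal marker list the median ratio was 0.23 in HFD 4 and 0.23 in HFD 8, and for the late spermatid list 6.01 and 7.71. With the ratio of the late spermatid to the epididymal sum as a covariate, 0 of the 10 genes were called, as were 0 of all 13149 genes tested. In that fit 4 of the 10 were above 0, and Cd81 had a log2 fold change of -0.089.

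**Figure D4:**
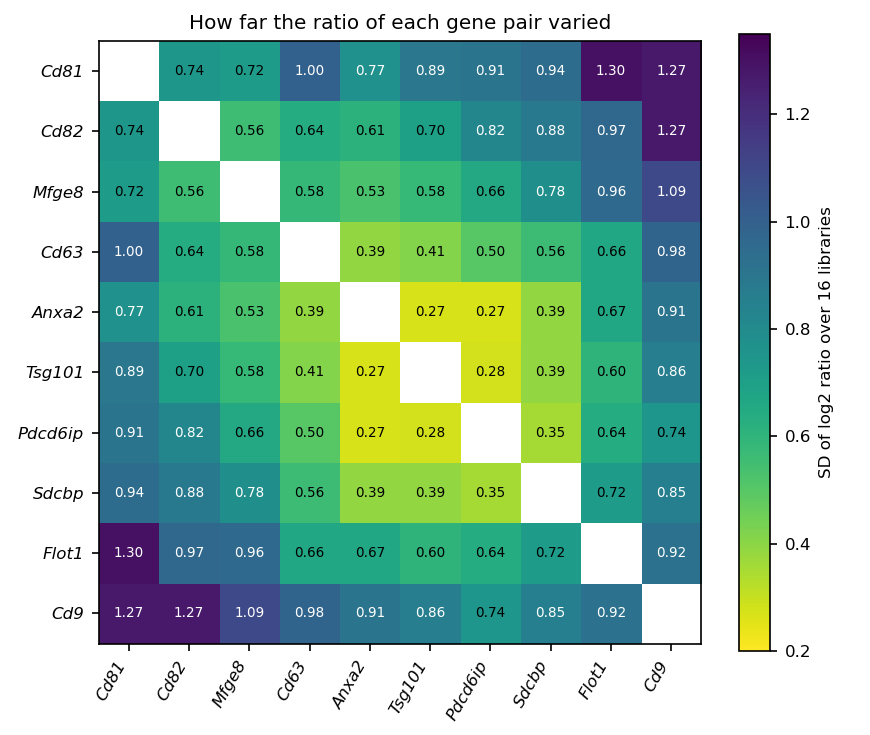
SD over 16 libraries of the log2 ratio of each pair of the 10 genes, where a lower value means that the proportion of the pair varied less. Anxa2, Tsg101 and Pdcd6ip kept theirs best, at 0.27 to 0.28, and Cd81 to Flot1 least, at 1.30.

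The proportion of some pairs varied less over the libraries than that of others. Each gene's own spread enters these values: log2 SDs were 0.41 for Pdcd6ip, 0.44 for Tsg101, 0.53 for Anxa2 and 1.20 for Cd81. Of the 45 pairs, Pdcd6ip to Anxa2 and Tsg101 to Anxa2 had the smallest SD of the log2 ratio, 0.27 each, followed by Pdcd6ip to Tsg101 at 0.28 and Pdcd6ip to Sdcbp at 0.35. The level of Pdcd6ip was 0.78 to 1.54 times that of Anxa2 in every library. At the other end stood Cd81 to Flot1 at 1.30 and Cd9 to Cd81 and Cd9 to Cd82 at 1.27 each. The level of Cd81 ran from 6.05 to 138 times that of Flot1. These high SDs depended on HFD 4 and HFD 8. With both left out, the SD was 0.91 for Cd81 to Flot1, 0.57 for Cd9 to Cd81 and 0.85 for Cd9 to Cd82. Cd9 to Cd81 then varied less than Cd81 to Cd82, whose SD was 0.77 without both and 0.74 over all libraries.

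For each of the 10, the genes most like it among 10172 with a mean of at least 10 CPM were those whose log2 ratio to it had the smallest SD over 16 libraries. Cd81 kept its proportion best with Defb42, a beta-defensin of the epididymis, with an SD of 0.25. The median gene had 1.21, near the log2 SD of Cd81 itself, 1.20. As the lowest of all genes compared, the value for Defb42 is low by selection. Defb42 was low in both libraries that stand apart, with 83.3 CPM in HFD 4, 74.96 CPM in HFD 8 and 278 to 1589 CPM in the other 14 libraries. Next came the adhesion molecule Alcam at 0.28 and the clathrin adaptor subunit Ap1s2 at 0.32. Cd9 was closest to Enoph1 at 0.38, to Atp6v1g3, a subunit of the vacuolar proton pump, at 0.43 and to Commd4 at 0.45. Like Cd9, Atp6v1g3 was high in HFD 4, with 132 CPM against 24.8 to 119 CPM in the other 14 libraries. Cd63 was closest to Pigu, Ywhag and Tmem50b, at 0.24 to 0.27, Cd82 to Bcl9l, Epha1 and the histone gene Hist1h1e, at 0.32 to 0.33, and Mfge8 to Tmem19, Nucb1 and Idnk, at 0.25 to 0.29.

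Pdcd6ip was closest to the transcription elongation gene Aff4 at 0.17 and to Gbas and the ribosomal protein gene Rpl23a at 0.19 each. Tsg101 was closest to Tab2, Scaf11 and Nfe2l2, at 0.18 to 0.19, and Anxa2 to Dnajc5, the membrane skeleton gene Add1 and the proteasome gene Psma7, at 0.15 to 0.17. Sdcbp was closest to Golph3l, Mtpn and Gspt1, at 0.18 to 0.22. Of these, Golph3l had 17.3 CPM in HFD 4 and 41.1 CPM in HFD 8, next to 21.6 to 79.2 CPM in the other 14 libraries. Flot1 was closest to Gpr108, Cdc42bpg and Med28, at 0.36 to 0.37. Over the other 14 libraries alone the genes named as closest ranked from 1, for Tmem19 with Mfge8, to 209, for Gspt1 with Sdcbp. Defb42 ranked 2 for Cd81, whereas Golph3l ranked 48 for Sdcbp, Psma7 49 for Anxa2, and Nucb1 47 and Idnk 96 for Mfge8.

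Beyond these 10 genes, 136 further genes of vesicle formation, secretion and cargo were read from 10 lists chosen by function, and 123 passed the filter. For these lists, most abundant means the highest mean CPM over all libraries, not scaled by gene length. Per kilobase the order can differ, as for Vps37a at 17.2 CPM and Hgs at 32.4 CPM. With adjustment over all genes tested, 0 of them passed the threshold, where the background was 0%. Of the 123, 44 were above and 79 below 0, against 49.6% of all genes above 0, with a median log2 fold change of -0.09. Without HFD 4 and HFD 8, 68 of 124 were above 0, against 49.2% of all genes, with a median of 0.03. At an unadjusted p under 0.05 there were 4 of 123, against 11.3% of all genes tested, and these were named after their values were seen: Vps36 of ESCRT-II at 1.19, the recycling GTPase Rab11b at -0.49 and, from the epididymosome cargo list, Glipr1l1 at 1.78 and the sperm hyaluronidase Spam1 at 1.56, each with an edgeR adjusted p of 0.434. HFD 4 held 133 CPM of Vps36 and HFD 8 held 35.6 CPM, against 9.58 to 28.2 CPM in the other 14 libraries.

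**Figure D5:**
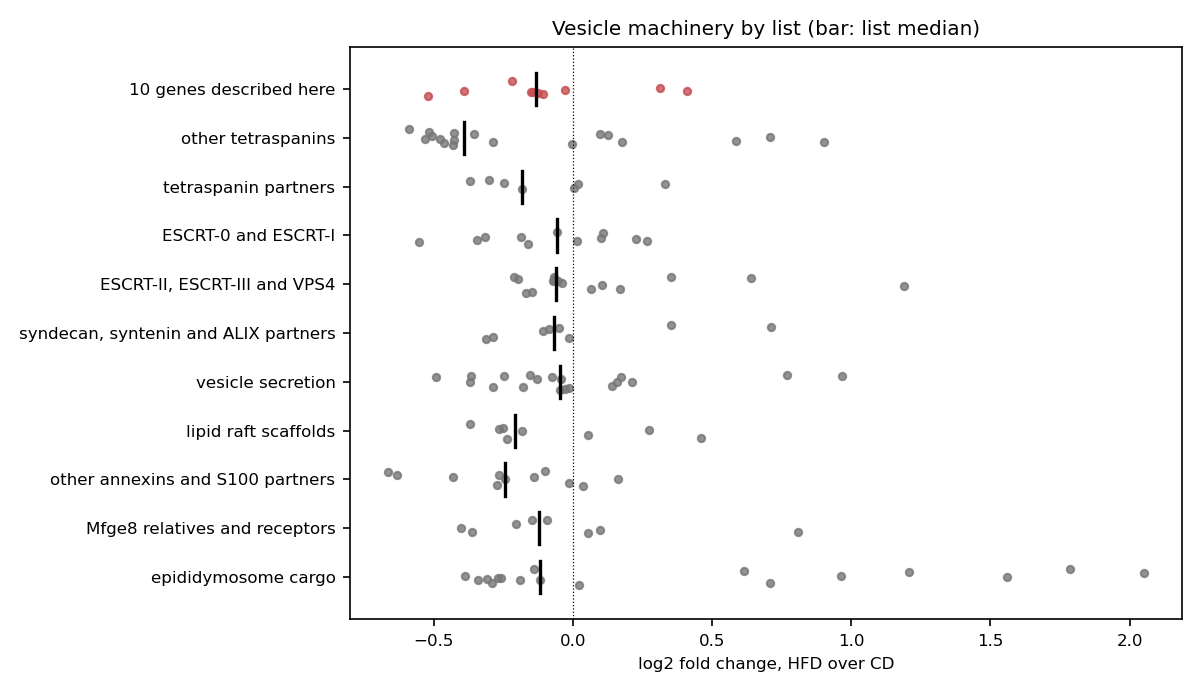
Log2 fold change, HFD over CD, of every tested gene of the vesicle lists, 1 point per gene, with the list median as a black bar and the 10 genes described here in red. List medians lie between -0.39 for other tetraspanins and -0.05 for vesicle secretion.

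Other tetraspanins had 18 tested genes, 6 above and 12 below 0, with a median of -0.39. Leaving out HFD 4 and HFD 8 gave -0.10. The most abundant was Tspan3, whose HFD mean was 209.9 CPM ± 112 and CD mean 256 ± 69.9 (SD, n = 8 each), then Cd151, a partner of laminin-binding integrins, with 53.7 ± 23.2 in HFD and 74.2 ± 25.8 in CD, and Tspan6 with 76.1 ± 88.9 in HFD and 40.6 ± 19.5 in CD. HFD 8 held 282 CPM of Tspan6 and HFD 4 held 118 CPM, next to 12.2 to 67.7 CPM in the others. Its log2 fold change was 0.90, and -0.21 without both libraries. Tetraspanin partners had 3 of 7 genes above 0 and a median of -0.18. Of the most abundant, the integrin subunit Itgb1 had 151.4 CPM ± 36.3 in HFD and 151.1 ± 22.6 in CD, the protease Adam10 82.3 ± 39.2 in HFD and 102 ± 51.6 in CD, and the laminin receptor subunit Itga6 38.5 ± 13.5 in HFD and 38.0 ± 12.2 in CD.

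Both ESCRT lists had medians close to 0. Of 11 tested in ESCRT-0 and ESCRT-I, 5 were above 0, with a median of -0.06. The most abundant were Vps37a with an HFD mean of 110.2 CPM ± 22.1 and a CD mean of 109 ± 28.4 (SD, n = 8 each), Hgs, the ESCRT-0 subunit that first binds ubiquitinated cargo, with 103 ± 26.8 in HFD and 85.7 ± 6.86 in CD, and Mvb12b with 56.1 ± 25.8 in HFD and 82.6 ± 22.2 in CD. Of 16 in ESCRT-II, ESCRT-III and the VPS4 group, 6 were above 0, with a median of -0.06. Leaving out HFD 4 and HFD 8 put 13 of 16 above 0, at a median of 0.07. Chmp2a, an ESCRT-III filament subunit, had 107 CPM ± 15.5 in HFD and 111 ± 10.9 in CD, Chmp4b 84.3 ± 9.65 in HFD and 88.3 ± 15.5 in CD, and Vps25 78.5 ± 30.4 in HFD and 90.96 ± 31.4 in CD. The syndecan, syntenin and ALIX partners had 2 of 8 above 0 and a median of -0.07. The most abundant were the GTPase Arf6 with 101 CPM ± 22.4 in HFD and 105 ± 13.7 in CD, the ALIX-binding calcium protein Pdcd6 with 58.1 ± 23.0 in HFD and 62.8 ± 19.6 in CD, and Sdc3 with 29.4 ± 12.4 in HFD and 36.0 ± 6.97 in CD.

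Of 19 secretion genes, 6 were above 0, with a median of -0.05. Rab7, the GTPase of late endosomes, averaged 329 CPM ± 86.5 for HFD and 425 ± 60.8 for CD (SD, n = 8 each), a log2 fold change of -0.37 with an edgeR adjusted p of 0.49. Sytl4, an effector of Rab27, had 150.2 CPM ± 116 in HFD and 184 ± 120.5 in CD, and the fusion protein Snap23 122 ± 23.7 in HFD and 125 ± 34.6 in CD. Lipid raft and curvature genes had 3 of 8 above 0 and a median of -0.21. This list held 2 abundant genes, the prominins, which sit on microvilli and other membrane protrusions and are shed on small vesicles: Prom2 had 1748 CPM ± 860.3 in HFD and 2260 ± 525 in CD and Prom1 828 ± 366 in HFD and 985 ± 235 in CD. The prominins were low in the libraries that stand apart: HFD 4 held 555 CPM of Prom2 and HFD 8 held 319 CPM, next to 1727 to 3180 CPM in the other 14 libraries.

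Annexins and their S100 partners had 2 of 11 above 0 and a median of -0.24. Leaving out HFD 4 and HFD 8 gave -0.012. Anxa4 averaged 178 CPM ± 53.1 for HFD and 179.9 ± 48.8 for CD (SD, n = 8 each), Anxa5 141 ± 48.9 in HFD and 171 ± 42.4 in CD, and S100a11, which binds annexins, 106 ± 63.0 in HFD and 168 ± 53.3 in CD. Relatives and receptors of Mfge8 had 3 of 8 above 0 and a median of -0.12. The most abundant were the integrin subunit Itgav with 168 CPM ± 77.9 in HFD and 158 ± 46.6 in CD, Gas6, which also bridges phosphatidylserine to cells, with 31.4 ± 11.5 in HFD and 33.5 ± 11.1 in CD, and Itgb6 with 28.9 ± 14.9 in HFD and 33.5 ± 9.34 in CD.

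Epididymosome cargo genes had 8 of 17 above 0 and a median of -0.12. Leaving out HFD 4 and HFD 8 gave 0.064. Its most abundant genes were the epididymal Crisp1, Adam7 and Rnase9, with log2 fold changes of 0.021 for Crisp1, -0.14 for Adam7 and -0.19 for Rnase9. Gpx5, a secreted glutathione peroxidase of the epididymis named after its values were seen, had the highest log2 fold change of all the vesicle lists. It ran from 7.87 CPM over a median of 1063 to 7826 CPM in HFD, and from 1.42 CPM over a median of 133 to 1999 CPM in CD. The ranges overlapped widely, and its log2 fold change of 2.05 had a 95% interval of -0.93 to 5.03 and an edgeR adjusted p of 0.621. Leaving out HFD 4 and HFD 8 gave 2.35 for Gpx5. In both HFD 4 and HFD 8, 6 of the 17 were below all other 14 libraries, against 22.6% of all genes tested: Adam7, Rnase9, Atp2b4, Dcxr, Dicer1 and Ago2. In the same libraries 4 of the 17 were above all others, against 21.8% of all genes tested: Spam1, Glipr1l1, Dpep3 and the RNA-binding gene Ybx1. The level of Ybx1 was 1669 CPM in HFD 4 and 1243 CPM in HFD 8, against 223 to 451 CPM in the others.

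The 10 genes are protein-coding and lie on chromosomes 2 (Cd82), 4 (Sdcbp), 6 (Cd9), 7 (Tsg101, Mfge8 and Cd81), 9 (Anxa2 and Pdcd6ip), 10 (Cd63) and 17 (Flot1) of GRCm38. Cd81 spans 143052739 to 143067934 on chromosome 7, Cd9 125460266 to 125494791 on chromosome 6, Mfge8 79133768 to 79149060 on chromosome 7 and Pdcd6ip 113651744 to 113708259 on chromosome 9. In GENCODE M21, 6 of the 10 overlap another annotated gene. Cd81 overlaps R74862, annotated as a processed transcript on the other strand, which had 10.7 CPM in HFD 4, 3.84 CPM in HFD 8 and 5.14 to 25.8 CPM in the other 14 libraries.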

How the data were processed

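The deposited table holds the authors' raw read counts per gene symbol, 1 column per library and not normalised. STAR, mm10, HTSeq 1.0.0 and DESeq2 1.0.19 are listed in the submitters' processing notes without role or order. The sources used here give neither the annotation nor the strand setting. The 5 summary rows of the counting program were left out. Reads outside any feature made up 76.1% in HFD 4, 74.96% in HFD 8 and 58.0% to 67.9% elsewhere. No molecular identifier is named, so amplified copies count as reads.

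Diets were compared with edgeR 4.0.16 (R 4.3.3, legacy quasi-likelihood F-test, robust, TMM, filter by diet, two-sided). SE and 95% intervals were derived from its F statistic. CPM of single genes are TMM-scaled. Summed CPM, and the values of Mael, Syce2 and Ddx4 given beside them, use each library's gene total. In simulated data over 13149 genes, the fit found 6 of 50 genes altered 2-fold and 42 of 50 altered 4-fold. It made 5 false calls. The altered genes were drawn at random from all genes tested, and most 2-fold changes among them were missed. Of the 10 genes followed here, 3 had a log2 SD above the median of all genes tested, 0.72. The rate for these 10 was not simulated. All 120 library pairs differed beyond sampling noise by chi-square (at least 11.3 per degree of freedom). GENCODE M21 and RefSeq supplied positions, lengths and sequences. Alternatives used DESeq2 1.42.0, limma 3.58.1 and other scalings, filters, covariates and library sets. The members and lists were chosen with earlier results of these data known. List genes named as most abundant are the 3 with the highest mean CPM of each list, not scaled by length.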

Additional observations from a re-analysis of the deposited data

Results flagged for a closer look

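Of 20 sets of 8 values (10 genes in 2 diets), 3 had 1 library further from its neighbour than Dixon's 95% criterion allows, and chance alone gives about 1 in 20. Cd63 stood at 183 CPM in CD 3, with a gap of 0.59 of the CD range. Cd82 stood at 95.3 CPM in CD 4, with a gap of 0.54 of the CD range. Sdcbp stood at 73.2 CPM in HFD 4, with a gap of 0.53 of the HFD range.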

How the results depend on the processing

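No alternative put any of the 10 genes or of the 136 further vesicle genes past the threshold. Over 28 alternative fits, the lowest adjusted p of the 10 was 0.490, for Cd9 without HFD 7. Exact permutation tests over 12870 assignments of libraries gave p of 0.175 for Cd82 to 0.695 for Cd63. Over all genes, DESeq2 called 1 gene and edgeR 0. The number of the 10 above 0 was 2 in most settings, 7 with limma-voom and quality weights, 4 with the sperm to epididymal ratio as a covariate, 7 without HFD 4 and HFD 8 (an alternative chosen after seeing the data), and 2 to 4 with 1 library left out, the highest without HFD 8. Signs changed with limma-voom for Cd63 (0.18), Cd81 (0.024), Pdcd6ip (0.047), Tsg101 (0.10) and Anxa2 (0.025), with the covariate for Cd63 (0.090) and Pdcd6ip (0.050), and without HFD 4 and HFD 8 for Cd63 (0.22), Pdcd6ip (0.079), Tsg101 (0.094), Mfge8 (0.18) and Anxa2 (0.036). Left-out single libraries gave -0.13 to 0.13 for Cd63, -0.20 to 0.0022 for Pdcd6ip and -0.29 to 0.015 for Mfge8. The cause of these changes was not tested. With the title numbers as a replicate block, 0 genes were called, 2 of the 10 were above 0, and 314 genes had an unadjusted p under 0.05, against 1482 without it. A pairing by number was not shown: deviations of same-numbered libraries correlated at -0.40 to 0.61, above 0.1 in 4 of 8 pairs. In 2 of 8 the correlation was best with the own number. With only 8 pairs, this check cannot exclude a pairing. Counts were low for Flot1 (11 to 63 reads per library), for Cd9 (16 to 191) and for Cd82 in HFD 4 (11) and HFD 8 (26), which limits their precision.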
